A study of Mus musculus with 2 samples.

Results

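The 10 genes followed here mark T cells and the lymphocytes lodged in the gut lining, and their transcripts were measured by polyA RNA-seq of adult mouse intestine. The genes are Cd3d, Cd3e, Cd3g, Cd4, Cd8a, Cd8b1, Itgae, Gzma, Gzmb and Ccl5, and they were chosen by symbol for their known roles, as 10 of the 43346 annotated genes in the deposited tables. The study holds 1 group of 2 libraries, biological replicates 2 and 1, from tissue labelled large intestine. The mice were C57BL/6J, an inbred laboratory strain, aged 8 weeks, with no treatment or allele named in the labels. Each replicate is labelled as a pool of male and female littermates, and both stand under 1 donor record. With 1 group there is no comparison of conditions. The values below therefore describe levels in the tissue and the distance between the libraries, as 1 library against 1 with no p-value. Levels are given as TPM, a share of all transcripts corrected for transcript length with the same total in each library, and errors are standard deviations (SD) of the libraries (n = 2).

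T cells recognise antigen through a receptor of variable chains held in the membrane with the CD3 chains, which carry the signal inward. CD4 marks helper and regulatory T cells, and CD8 marks cytotoxic T cells and many intraepithelial lymphocytes, which sit between the epithelial cells. There the integrin alpha E chain, encoded by Itgae and also called CD103, pairs with the beta 7 chain and binds E-cadherin on the epithelium, and intraepithelial lymphocytes typically store granzymes and make the chemokine CCL5.

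Depth was 58233142 expected counts for replicate 2 and 50189619 for replicate 1, and mitochondrial genes held 3.10% of all TPM in replicate 2, against 6.33% in replicate 1. Colon markers went against the tissue label: Car1, a carbonic anhydrase abundant in colon epithelium, was at 0.27 TPM in replicate 2, against 0.23 TPM in replicate 1. Aqp8, which encodes a water channel, had 0.04 TPM in each. Genes of the small intestine were present, with Lyz1, the Paneth cell lysozyme, at 6826 TPM in replicate 2, against 4597 TPM in replicate 1. Fabp6, the ileal bile acid binding protein, was at 5279 TPM in replicate 2, against 477 TPM in replicate 1. Xist had 12563 counts in replicate 2 and 17 in replicate 1, while 4 Y-linked genes together had 3 counts in replicate 2 and 2741 in replicate 1, against the pooled-sex label. The libraries thus differed beyond the 10 genes, and sex and segment of the gut cannot be told apart from the replicate number in any ratio below.

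All 10 genes reached 1 TPM in each library and are called detected, as were 29.9% of the annotated genes. Their sum was 231.71 TPM in replicate 2, against 341.09 TPM in replicate 1, a mean of 286 TPM ± 77.3 (SD, n = 2), or a share of 0.0232% in replicate 2, against 0.0341% in replicate 1. Ccl5 alone held 68.7% of that sum in replicate 2 and 71.4% in replicate 1. In tissue RNA, fewer cells of a type and less RNA per cell cannot be told apart.

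By mean level the order was Ccl5, Gzma, Gzmb, Cd3e, Cd3g, Itgae, Cd4, Cd3d, Cd8a and Cd8b1. The ranges of the replicates overlapped between the neighbours Gzma and Gzmb, Cd3g and Itgae, Itgae and Cd4, and Cd3d and Cd8a, so those pairs have no order beyond their spread. Ccl5 stood at percentile 95.4 of the detected genes by mean TPM, the granzymes near percentile 66.0, and Cd8b1 at percentile 13.4.

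**Figure D1:**
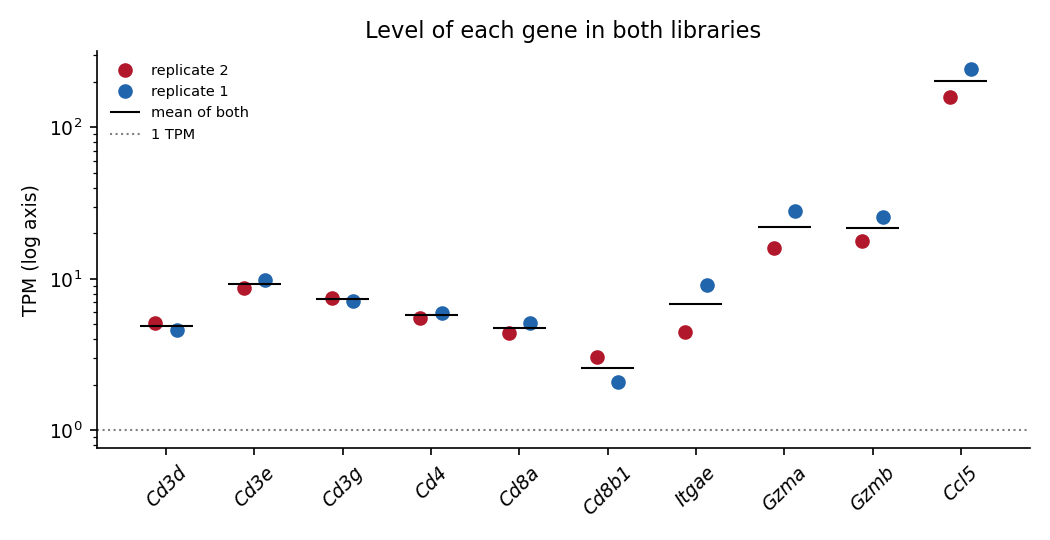
Level of each of the 10 genes in TPM (log axis) in replicate 2 (red) and replicate 1 (blue), with the mean of both as a black bar and 1 TPM as a dotted line. Ccl5 stood above all others at 159.18 TPM in replicate 2, against 243.7 TPM in replicate 1, while Cd8b1 was lowest at 3.05 TPM in replicate 2, against 2.08 TPM in replicate 1.

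The 3 CD3 genes were at near-equal levels in both libraries. Cd3e (ENSMUSG00000032093.6, chromosome 9, 44998740 to 45009627, minus strand, mm10) encodes the epsilon chain, which pairs with both other chains. It was at 8.74 TPM in replicate 2 (617 expected counts), against 9.82 TPM in replicate 1 (532 counts). Cd3g (ENSMUSG00000002033.9, chromosome 9, 44969572 to 44980431, minus strand) encodes the gamma chain and was at 7.5 TPM in replicate 2 (351 counts), against 7.13 TPM in replicate 1 (256 counts). Cd3d (ENSMUSG00000032094.7, chromosome 9, 44981786 to 44987339, plus strand), the delta chain gene, was at 5.12 TPM in replicate 2 (328 counts), against 4.6 TPM in replicate 1 (226 counts). Their sums were close, with 21.36 TPM in replicate 2, against 21.55 TPM in replicate 1. The TPM ratio of replicate 2 to replicate 1 was 0.890 for Cd3e, 1.05 for Cd3g and 1.11 for Cd3d, and the 95% counting interval held 1 for each (0.791 to 1.001, 0.893 to 1.24 and 0.937 to 1.32). These intervals, here and below, are exact conditional binomial limits that cover counting error only, not variation between animals.

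The 3 CD3 genes lie together on chromosome 9. Cd3g and Cd3d point away from each other with their starts 1355 bases apart, and 11401 bases separate Cd3d from Cd3e. The RefSeq promoter table (build GRCm38.p6) held windows of 300 bases, from 250 before the start to 50 after it, for 6 of the 10 genes: Cd3d, Cd3e, Cd3g, Cd8a, Gzma and Gzmb. The 3 CD3 windows are shown as those of the neighbouring genes with near-equal levels in both libraries, and the 2 granzyme windows as those of genes that were lower in replicate 2. Each runs 5′ to 3′ on the gene's strand, with capitals at matches to 7 motifs searched on both strands. These were the TATA box TATAAA, the RUNX motif TGTGGT, the ETS motif GGAAGT, the GATA motif AGATAA, an E-box spelled CAGCTG, a second E-box spelled CACCTG, and the AP-1 motif TGAGTCA.
Cd3d (chr9:44981536-44981835, plus strand): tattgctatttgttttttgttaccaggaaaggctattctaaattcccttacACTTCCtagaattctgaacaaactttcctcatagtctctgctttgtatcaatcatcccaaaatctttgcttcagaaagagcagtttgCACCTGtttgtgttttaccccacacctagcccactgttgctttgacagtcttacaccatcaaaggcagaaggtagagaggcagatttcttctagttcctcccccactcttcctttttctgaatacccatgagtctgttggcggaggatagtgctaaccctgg
Cd3e (chr9:45009562-45009861, minus strand): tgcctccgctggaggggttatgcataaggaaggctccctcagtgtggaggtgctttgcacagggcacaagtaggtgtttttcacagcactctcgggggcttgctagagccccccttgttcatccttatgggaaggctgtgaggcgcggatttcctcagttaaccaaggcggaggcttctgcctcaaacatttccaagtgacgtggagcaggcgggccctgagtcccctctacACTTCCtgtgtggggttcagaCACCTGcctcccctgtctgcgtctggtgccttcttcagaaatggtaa
Cd3g (chr9:44980382-44980681, minus strand): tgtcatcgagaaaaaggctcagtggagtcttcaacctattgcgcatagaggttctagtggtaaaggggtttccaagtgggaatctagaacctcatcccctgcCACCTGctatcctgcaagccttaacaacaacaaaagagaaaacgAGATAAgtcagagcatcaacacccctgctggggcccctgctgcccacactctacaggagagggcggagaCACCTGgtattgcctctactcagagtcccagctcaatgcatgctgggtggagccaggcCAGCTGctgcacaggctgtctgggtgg
Gzma (chr13:113100932-113101231, minus strand): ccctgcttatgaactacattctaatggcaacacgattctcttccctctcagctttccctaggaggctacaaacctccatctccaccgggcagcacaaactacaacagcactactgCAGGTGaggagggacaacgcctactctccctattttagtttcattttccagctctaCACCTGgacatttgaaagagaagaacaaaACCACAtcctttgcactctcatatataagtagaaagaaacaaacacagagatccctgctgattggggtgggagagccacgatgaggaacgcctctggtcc
Gzmb (chr14:56262285-56262584, minus strand): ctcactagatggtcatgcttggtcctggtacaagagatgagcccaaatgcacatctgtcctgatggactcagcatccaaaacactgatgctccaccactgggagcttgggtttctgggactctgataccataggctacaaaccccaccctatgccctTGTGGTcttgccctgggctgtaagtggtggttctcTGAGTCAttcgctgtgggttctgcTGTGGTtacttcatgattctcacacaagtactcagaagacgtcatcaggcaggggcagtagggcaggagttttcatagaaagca

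The E-box CACCTG was present in all 3 CD3 windows. It began 112 bases before the start in Cd3d, 3 bases after it in Cd3e, and 148 and 35 bases before it in Cd3g. Of all 32851 windows in the table, 20.2% held this motif. It also occurred at 2 places in the Gzma window. The ETS letters began 199 bases before the start of Cd3d and 18 before that of Cd3e, against 23.8% of all windows holding them, and the GATA letters were in the Cd3g window, against 11.2%. CAGCTG was in the Cd3g window and in that of Cd8a, against 16.3%. Both granzyme windows held the RUNX letters, once in Gzma at 50 bases and in Gzmb at 93 and 34 bases before the start, against 16.8% of all windows. Gzmb also held the AP-1 letters 58 bases before the start, against 5.20%. The TATA letters were in none of the 6 windows, against 13.6%. No matches overlapped (0 pairs). A match describes the letters in the window and is not a binding site, and no match says only that the letters are not in that window. Distances are counted from the RefSeq start, and the GENCODE start lies 16 bases upstream of it in Cd3e and 74 bases downstream of it in Gzmb.

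The coreceptor genes were expressed at similar sums in both libraries, 12.94 TPM in replicate 2, against 13.19 TPM in replicate 1. Cd4 (ENSMUSG00000023274.10, chromosome 6, 124864692 to 124888221, minus strand), whose protein binds MHC class II, was at 5.51 TPM in replicate 2 (910 counts), against 5.98 TPM in replicate 1 (750 counts). Cd8a (ENSMUSG00000053977.9, chromosome 6, 71373427 to 71379173, plus strand) encodes the alpha chain, found in CD8 alpha-beta pairs and in the alpha-alpha pairs typical of many intraepithelial lymphocytes. It was at 4.38 TPM in replicate 2 (735 counts), against 5.13 TPM in replicate 1 (660 counts). Cd8b1 (ENSMUSG00000053044.7, chromosome 6, 71322788 to 71337494, plus strand), the beta chain gene of conventional CD8 T cells, lies 35933 bases from Cd8a and was at 3.05 TPM in replicate 2 (212 counts), against 2.08 TPM in replicate 1 (111 counts). Cd8b1 and Cd8a thus lay on opposite sides: the TPM ratio of replicate 2 to replicate 1 was 1.47 for Cd8b1 (1.16 to 1.86), 0.854 for Cd8a (0.768 to 0.950) and 0.921 for Cd4 (0.836 to 1.02).

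Ratios within a library do not depend on the scaling between libraries. Cd8a over Cd4 was 0.795 in replicate 2 (0.720 to 0.877) and 0.858 in replicate 1 (0.771 to 0.954), so the coreceptor genes stood in nearly the same proportion, and the ratio of these ratios was 0.918 (0.794 to 1.06). Cd8b1 over Cd8a was 0.696 in replicate 2 (0.595 to 0.812) and 0.405 in replicate 1 (0.329 to 0.496). That shift of 1.71 times (1.32 to 2.23) lay outside counting error. The CD8 alpha chain transcript exceeded the beta chain transcript in both libraries, more so in replicate 1. Cd8a is also made by a subset of dendritic cells. Of the dendritic cell markers, Xcr1 was at 0.24 TPM in replicate 2, against 0.48 TPM in replicate 1. Clec9a was at 0.33 TPM in replicate 2, against 0.75 TPM in replicate 1, and Itgax at 4.53 TPM in replicate 2, against 7.39 TPM in replicate 1. The part of dendritic cells in the Cd8a level was not tested.

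Itgae (ENSMUSG00000005947.7, chromosome 11, 73090583 to 73147446, plus strand) differed most of the 10 genes. It was at 4.43 TPM in replicate 2 from 929 counts and at 9.13 TPM in replicate 1 from 1466 counts, a mean of 6.78 TPM ± 3.32 (SD, n = 2). The plain TPM ratio of replicate 2 to replicate 1 was 0.485 (0.446 to 0.527), or 2.06 times higher in replicate 1. Haspin, a kinase gene on the opposite strand inside Itgae (73135485 to 73138294), had 383 counts in replicate 2 and 317 in replicate 1. Whether the counting used strand is not stated in the labels, so reads of these overlapping genes may not be told apart.

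The effector genes were the most abundant of the set and all lay lower in replicate 2. Ccl5 (ENSMUSG00000035042.2, chromosome 11, 83525778 to 83530518, minus strand) was at 159.18 TPM in replicate 2 (2942 counts), against 243.7 TPM in replicate 1 (3470 counts), ranking at 712 in replicate 2 and 512 in replicate 1 among all genes. Gzma (ENSMUSG00000023132.7, chromosome 13, 113093825 to 113100981, minus strand), the gene of the tryptase-like granzyme A, was at 15.91 TPM in replicate 2 (611 counts), against 27.9 TPM in replicate 1 (822 counts). Gzmb (ENSMUSG00000015437.4, chromosome 14, 56258838 to 56262260, minus strand), whose protease cuts after aspartate and triggers apoptosis of target cells, was at 17.89 TPM in replicate 2 (1245 counts), against 25.62 TPM in replicate 1 (1367 counts). The TPM ratio of replicate 2 to replicate 1 was 0.653 for Ccl5 (0.622 to 0.686), 0.570 for Gzma (0.513 to 0.634) and 0.698 for Gzmb (0.646 to 0.755). Both granzymes were near-equal in level, with Gzma over Gzmb at 0.889 in replicate 2 (0.806 to 0.981) and 1.09 in replicate 1 (0.998 to 1.19). The ratio of these ratios was 0.816 (0.715 to 0.931).

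On the log2(TPM + 1) scale, where ratios of low genes are understated, the log2 ratio of replicate 2 over replicate 1 was -0.90 for Itgae, -0.77 for Gzma, -0.61 for Ccl5 and -0.49 for Gzmb. It was 0.39 for Cd8b1 and between -0.19 and 0.13 for the CD3 genes, Cd4 and Cd8a. The median over the 10 genes was -0.17, and over all 13512 genes with a mean of at least 1 TPM it was -0.14, so relative to the bulk of genes 4 members lay above and 6 below. None of the 10 was at least 2-fold higher in replicate 2 (0 members, against 1.18% of all such genes) or in replicate 1 (0 members, against 4.46%). The counting interval of the TPM ratio lay above 1 for 1 member, Cd8b1, against 21.1% of all such genes, and below 1 for 5, Cd8a, Itgae, Gzma, Gzmb and Ccl5, against 52.7%. The members' shares do not exceed those of all genes, and these counts show nothing particular to them. Relative to the median of all genes the log2 ratios were -0.75 for Itgae, -0.63 for Gzma, -0.47 for Ccl5, -0.35 for Gzmb, -0.04 for Cd8a and 0.54 for Cd8b1. Scaled with TMM, which put the median of all genes at 0.00, Itgae, Gzma, Ccl5 and Gzmb were at -0.83, -0.59, -0.44 and -0.33 and Cd8b1 at 0.54, while Cd4 turned to 0.07 and Cd3e to 0.00.

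**Figure D2:**
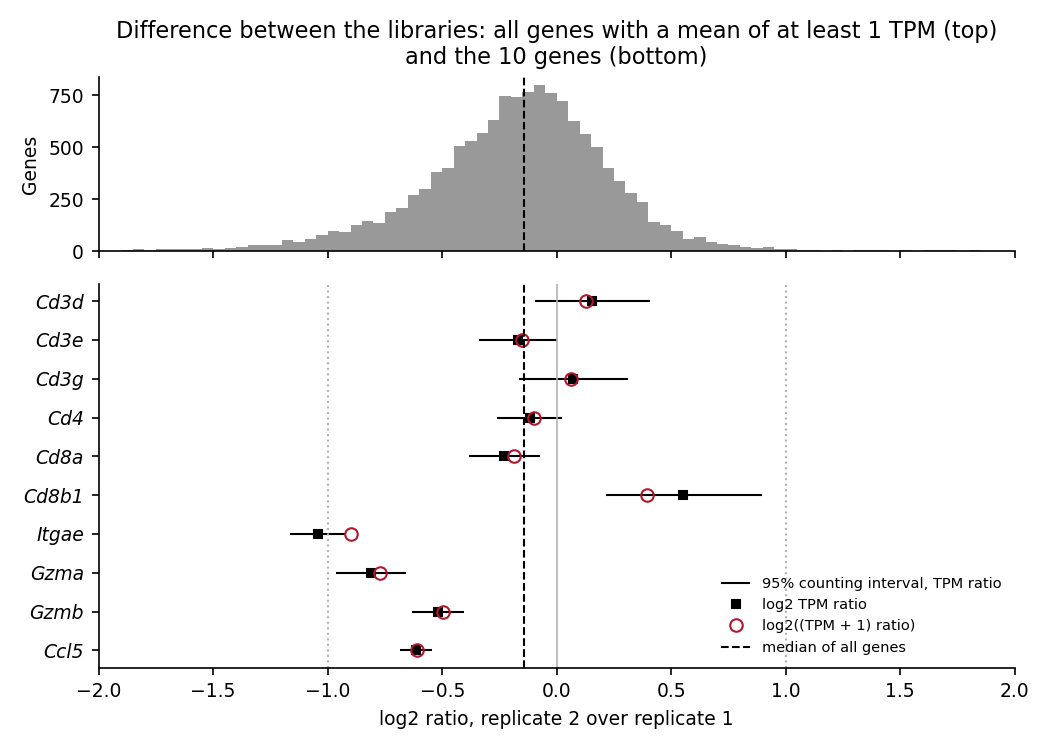
Log2 ratio of replicate 2 over replicate 1 for all 13512 genes with a mean of at least 1 TPM (histogram, top) and for the 10 genes (bottom), as the plain TPM ratio with its 95% counting interval (squares and lines) and as the (TPM + 1) ratio (open circles). The dashed line is the median of all genes at -0.14 and dotted lines mark 2-fold; Itgae, Gzma, Ccl5 and Gzmb lie left of the median and Cd8b1 right of it.

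Set against the mean CD3 level of the same library, the effector genes stood above the coreceptors. Itgae lay within the coreceptor range in replicate 2 and above it in replicate 1. Cd4 was at 0.774 of the mean CD3 level in replicate 2 and 0.832 in replicate 1. Cd8a was at 0.615 in replicate 2 and 0.714 in replicate 1, and Cd8b1 at 0.428 in replicate 2 and 0.290 in replicate 1. Itgae was at 0.622 of the mean CD3 level in replicate 2 and 1.27 in replicate 1. Ccl5 was at 22.4 times that level in replicate 2 and 33.9 times in replicate 1. Gzma was at 2.23 in replicate 2 and 3.88 in replicate 1, and Gzmb at 2.51 in replicate 2 and 3.57 in replicate 1. In counts against the 3 CD3 genes together, the ratio of replicate 2 to replicate 1 was 0.496 for Itgae (0.441 to 0.558), 0.582 for Gzma (0.508 to 0.666), 0.663 for Ccl5 (0.602 to 0.731) and 0.713 for Gzmb (0.636 to 0.799). For Cd4 it was 0.949 (0.835 to 1.08), for Cd8a 0.871 (0.761 to 0.998) and for Cd8b1 1.49 (1.16 to 1.93). Relative to CD3 transcripts, the replicate 2 library thus held less of Itgae, both granzymes and Ccl5 and more Cd8b1, beyond counting error, and the interval for Cd8a also ended just below 1.

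**Figure D3:**
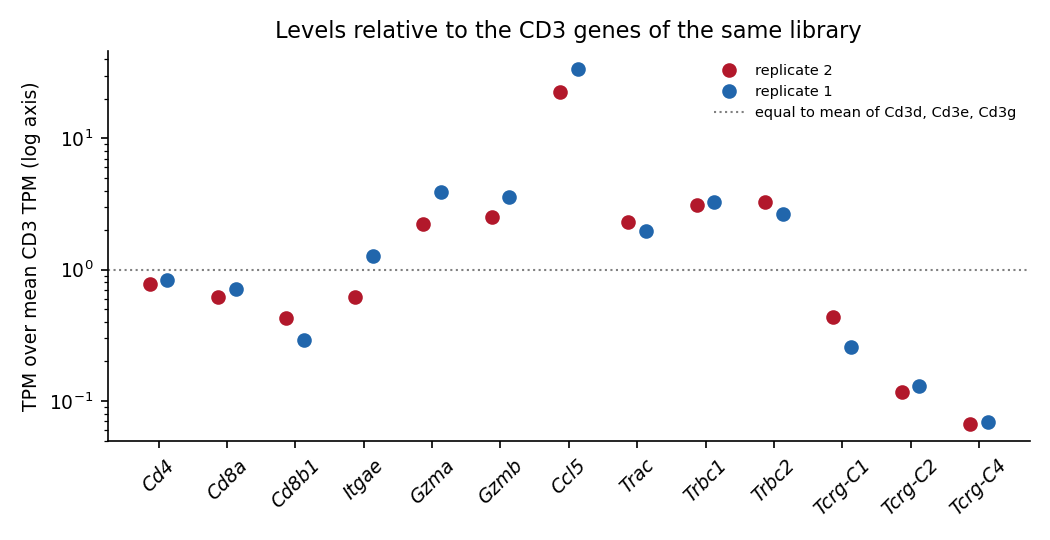
TPM of 7 of the 10 genes and of 6 T cell receptor constant genes, divided by the mean TPM of Cd3d, Cd3e and Cd3g in the same library (log axis), in replicate 2 (red) and replicate 1 (blue). Ccl5 is highest at 22.4 in replicate 2 and 33.9 in replicate 1, and Tcrg-C4 is lowest at 0.0674 in replicate 2 and 0.0696 in replicate 1.

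The alpha and beta constant genes of the T cell receptor were present at higher TPM than any CD3 gene. That order depends on the correction for length. In expected counts Trac had 191 in replicate 2 and 126 in replicate 1, fewer than each CD3 gene. Of 6 constant genes measured, 4 were detected in both libraries, summing to 66.41 TPM in replicate 2, against 59.98 TPM in replicate 1 over all 6. Trbc1, a beta constant gene, was at 22.12 TPM in replicate 2, against 23.53 TPM in replicate 1, its near-copy Trbc2 at 23.36 TPM in replicate 2, against 19.01 TPM in replicate 1, and the alpha constant gene Trac at 16.5 TPM in replicate 2, against 14.16 TPM in replicate 1. The beta genes share sequence, as do the gamma genes, so the split between copies is uncertain. Tcrg-C1, a constant gene of the gamma chain that marks gamma-delta T cells, was at 3.12 TPM in replicate 2 from 55 counts and 1.85 TPM in replicate 1 from 25. Gamma over alpha and beta constant genes came to 0.0715 in replicate 2 and 0.0578 in replicate 1; the delta constant gene was not analysed here.

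Of 15 genes of receptor signalling and T cell identity, 11 were detected in both libraries and none was 2-fold apart on the log2(TPM + 1) scale in either direction (0 and 0). Lck, the kinase that phosphorylates the CD3 chains, was at 16.9 TPM in replicate 2, against 15.55 TPM in replicate 1. The adaptor gene Lat was at 12.22 TPM in replicate 2, against 10.7 TPM in replicate 1, and Tcf7, a T cell transcription factor gene, at 9.79 TPM in replicate 2, against 9.06 TPM in replicate 1. The median log2 ratio of the 13 with a mean of at least 1 TPM was -0.15, close to the -0.14 of all genes. Bcl11b, a factor of T cell commitment, had the lowest ratio of them, at 5.24 TPM in replicate 2, against 10.64 TPM in replicate 1 (a plain TPM ratio of 0.492).

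Helper and regulatory genes were mostly near the floor of these tissue libraries. Of 14, 13 lay below 1 TPM in both libraries, with Foxp3, the regulatory T cell factor, at 0.35 TPM in each. Among genes of naive and circulating T cells, Ccr7, the receptor that leads cells into lymphoid tissue, was at 6.28 TPM in replicate 2, against 4.36 TPM in replicate 1. Klf2 was at 9.26 TPM in replicate 2, against 7.19 TPM in replicate 1, and S1pr1, the exit receptor, at 9.79 TPM in replicate 2, against 10.54 TPM in replicate 1. The median log2 ratio of the 5 with a mean of at least 1 TPM was 0.23, against -0.14 over all genes.

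The cytotoxic list outside the members was uneven. Nkg7, a granule membrane protein gene, was at 18.87 TPM in replicate 2, against 19.62 TPM in replicate 1. Srgn, the proteoglycan that packs granzymes, was at 15.36 TPM in replicate 2, against 20.24 TPM in replicate 1, and Ctsw at 9.07 TPM in replicate 2, against 9.42 TPM in replicate 1. Yet Prf1, the gene of the pore-former perforin, was only at 0.86 TPM in replicate 2, against 1.07 TPM in replicate 1, far below the granzymes, and 6 of the 10 genes lay below 1 TPM in both. The granzyme B inhibitor gene Serpinb9 was at 3.38 TPM in replicate 2, against 2.78 TPM in replicate 1.

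Of the 11 further intraepithelial lymphocyte genes measured, 10 had a mean of at least 1 TPM. Of these, 9 were lower in replicate 2, as were 66.5% of all such genes, and 7 lay below the median of all genes. Their median log2 ratio was -0.24, against -0.14 over all genes. Scaled with TMM the median over all 11 was -0.09, and Itgb7 and Xcl1 turned to 0.02 and 0.01. Itgb7, the partner chain of Itgae, was at 12.63 TPM in replicate 2, against 14.13 TPM in replicate 1, a smaller gap than that of Itgae. Ccr9, the gut-homing receptor, was at 3.96 TPM in replicate 2, against 8.39 TPM in replicate 1. Il2rb, a chain of the IL-15 receptor, was at 8.98 TPM in replicate 2, against 10.62 TPM in replicate 1. Itga1, an integrin chain that other tissue cells also express, was at 1.82 TPM in replicate 2, against 4.84 TPM in replicate 1. It was past 2-fold on the log2(TPM + 1) scale, and as plain TPM ratios both Itga1, at 0.376 (0.341 to 0.415), and Ccr9, at 0.472 (0.426 to 0.522), were.

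The epithelial partners of these lymphocytes were also lower in replicate 2. Cdh1, the E-cadherin gene and ligand of the Itgae product, was at 137.09 TPM in replicate 2, against 222.22 TPM in replicate 1. Ccl25, the ligand of CCR9, was at 226.67 TPM in replicate 2, against 276.98 TPM in replicate 1. Btnl6, a butyrophilin-like gene of gut epithelium, was at 93.86 TPM in replicate 2, against 154.86 TPM in replicate 1. Of 10 such genes 9 had a mean of at least 1 TPM, and all 9 were lower in replicate 2 and below the median of all genes, against the 66.5% of all genes that were lower. Their median log2 ratio was -0.72. None was 2-fold apart on the log2(TPM + 1) scale (0 genes), and as a plain TPM ratio Ahr was, at 0.445 (0.399 to 0.496). Ccr1, whose product binds CCL5, was at 3.62 TPM in replicate 2, against 3.91 TPM in replicate 1, and Ccr3, which encodes a further receptor of it, at 0.1 TPM in replicate 2, against 0.14 TPM in replicate 1.

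Markers of other cell types also differed between the libraries. The 7 B cell genes summed to 144.47 TPM in replicate 2, against 92.74 TPM in replicate 1, and the 5 genes of lymphoid follicle stroma to 176.38 TPM in replicate 2, against 101.77 TPM in replicate 1, with medians of 0.60 and 0.67. The 6 plasma cell genes summed to 10032 TPM in replicate 2, against 19713 TPM in replicate 1. Most of that sum was Igha, at 8967 TPM in replicate 2, against 17969 TPM in replicate 1. Of the 6, 5 were lower in replicate 2, while Xbp1 was higher in it, at 171.62 TPM, against 123.78 TPM in replicate 1. The 7 mast cell genes summed to 16.38 TPM in replicate 2, against 78.81 TPM in replicate 1. Mcpt1, a mucosal mast cell protease gene, was at 5.01 TPM in replicate 2, against 55.45 TPM in replicate 1, while Kit, which interstitial cells of Cajal also express, was at 9.45 TPM in replicate 2, against 9.35 TPM in replicate 1, and 4 mast cell genes were under 1 TPM in each library. Thus B cell and follicle stroma sums were higher in replicate 2, as was Cd8b1, while plasma cell and mast cell sums were lower in it, as were Itgae, the granzymes and Ccl5. Dendritic cells, some of which express Itgae, had 6 markers, 3 of them below 1 TPM in both, that summed to 7.79 TPM in replicate 2, against 14.19 TPM in replicate 1. Most of each sum was Itgax, at 4.53 TPM in replicate 2, against 7.39 TPM in replicate 1. Siglech was at 0.69 TPM in replicate 2, against 3.28 TPM in replicate 1. All 6 were lower in replicate 2, though Zbtb46 was near-equal, at 1.31 TPM, against 1.32 TPM in replicate 1. Macrophages, which can make CCL5, had 7 markers summing to 214.17 TPM in replicate 2, against 242.31 TPM in replicate 1, mostly from the complement genes C1qb and C1qa. Within that list the plain TPM ratio of replicate 2 to replicate 1 was 0.877 for C1qb and 0.998 for C1qa, but 0.659 for Csf1r, 0.600 for Adgre1 and 0.586 for Cx3cr1, beside 0.653 for Ccl5. Natural killer and innate lymphoid markers were low, at 2.45 TPM in replicate 2, against 4.13 TPM in replicate 1 over 7 genes. Of the 7, 6 lay below 1 TPM in both. Most of each sum was Il1rl1, at 1.75 TPM in replicate 2, against 3.53 TPM in replicate 1. Among the 7, 4 were lower in replicate 2 and 2 higher. The 2 were Ncr1, at 0.24 TPM in replicate 2, against 0.14 TPM in replicate 1, and Klrb1c, at 0.25 TPM, against 0.16 TPM. Klra4 was at 0 in both. The 9 epithelial genes summed to 10710 TPM in replicate 2, against 11556 TPM in replicate 1, and 6 pan-leukocyte genes to 355.9 TPM in replicate 2, against 313.73 TPM in replicate 1. Single genes of these lists differed more than the sums, and in both directions. Plain TPM ratios were 0.480 for Vil1, 0.620 for Cdh17 and 0.711 for Epcam, beside 0.617 for Cdh1, and 0.559 for Ptprc. Yet 4 of the 9 epithelial genes were higher in replicate 2, with 1.29 for Cldn7 and 1.27 for Krt18. So were 5 of the 6 pan-leukocyte genes, with 1.46 for Cd52. The part of these cell types in the differences of the 10 genes was not tested.

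**Figure D4:**
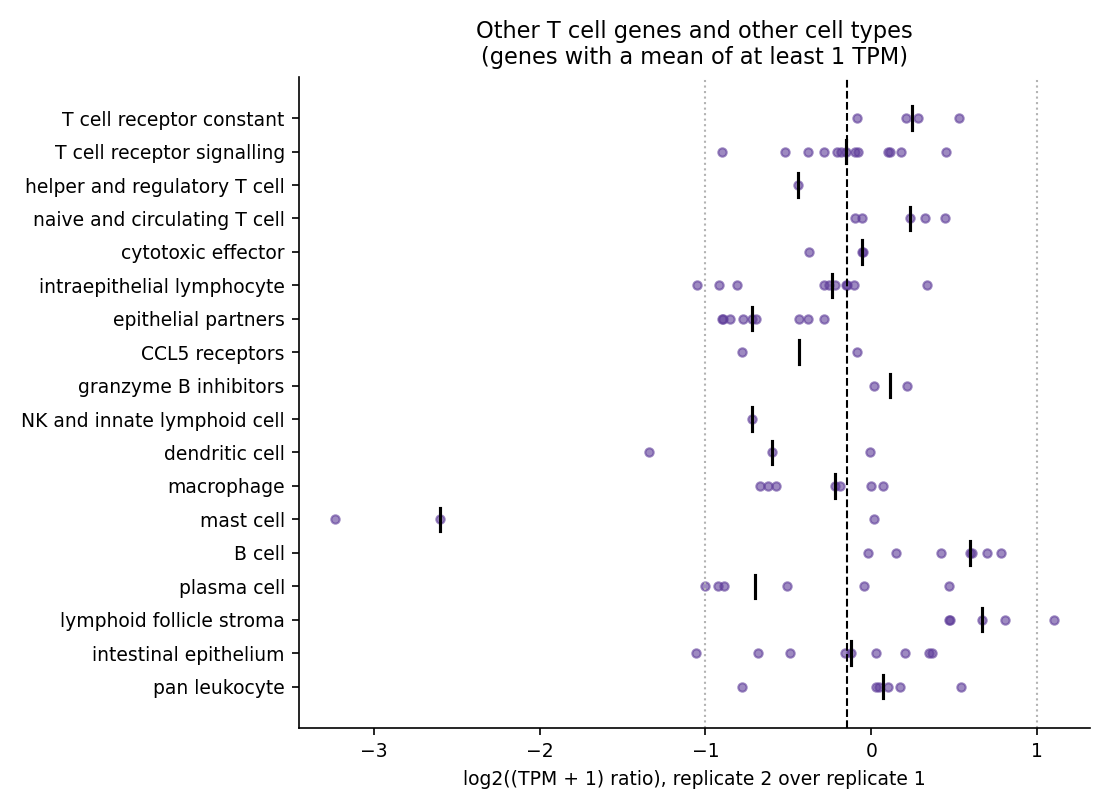
Log2((TPM + 1) ratio) of replicate 2 over replicate 1 for genes with a mean of at least 1 TPM in 18 lists outside the 10 genes (points), with each list's median (black bars), the median of all genes at -0.14 (dashed) and 2-fold (dotted). B cell and follicle stroma medians lie at 0.60 and 0.67, the epithelial partners at -0.72 and mast cells at -2.60.

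At the transcript level, 5 of the 10 genes had 1 annotated transcript each, and the other 5 had the same most abundant transcript in both libraries. Of the 4 with a mean of at least 5 TPM, all 4 kept the same top transcript, as did 88.3% of 6751 such genes. For 3 it held 90% or more in both libraries, against 23.1% of such genes. By the posterior mean shares, Cd4-201 held 90.86% of Cd4 in replicate 2 and 88.44% in replicate 1, so Cd4 missed the 90% limit in replicate 1. Cd8a was split between coding transcripts: Cd8a-201, with 5 exons, held 72.24% in replicate 2 and 69.15% in replicate 1. Cd8a-202, with 4 exons and a coding sequence of 666 against 741 bases, held 27.76% in replicate 2 and 30.85% in replicate 1, so the split differed little.

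For Itgae the share of a retained-intron transcript differed, a comparison chosen after its values were seen. Itgae-202, annotated as retained intron, held 8.98% of the gene in replicate 2 and 26.35% in replicate 1, with expected counts of 83.0 for replicate 2 and 385 for replicate 1. The coding transcript Itgae-201 was at 4.04 TPM in replicate 2, against 6.73 TPM in replicate 1, a smaller gap than that of the whole gene. A retained-intron share 10 or more percentage points higher in replicate 1 occurred in 8.24% of 3885 genes with such transcripts, and higher in replicate 2 in 4.2%. The retained-intron transcript of Ccl5 held 0.48% in replicate 2 and 1.33% in replicate 1.

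**Figure D5:**
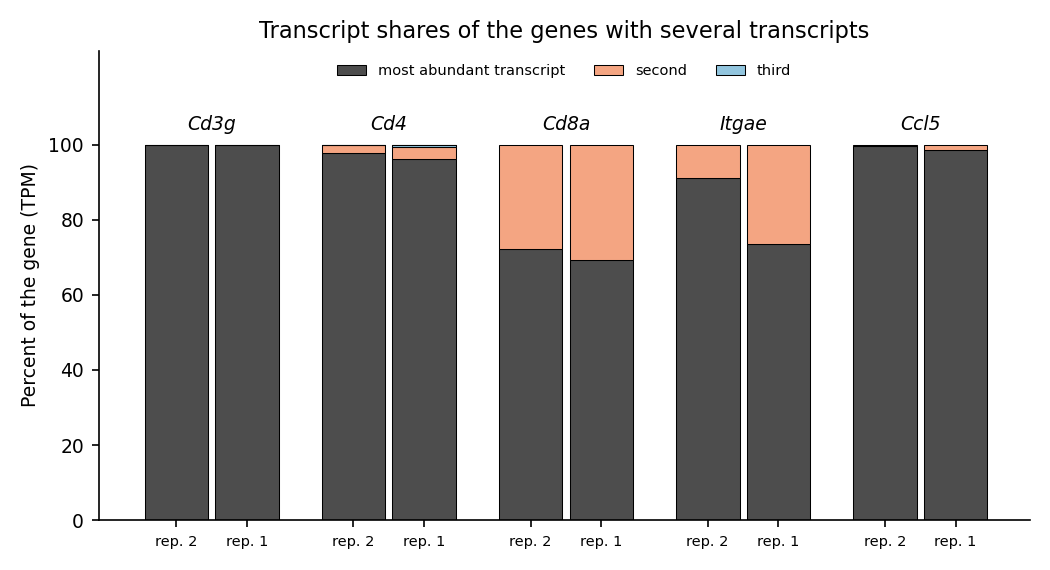
Share of each transcript in its gene (percent of TPM, stacked bars) for the 5 genes with several annotated transcripts, in replicate 2 (left bar of each pair) and replicate 1 (right bar). The second transcript of Itgae takes 8.98% in replicate 2 and 26.35% in replicate 1, while that of Cd8a takes 27.76% in replicate 2 and 30.85% in replicate 1.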

How the data were processed

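PolyA RNA longer than 200 nt was sequenced as stranded paired reads of 76 nt, as the labels state. For each library the authors deposited tables of genes and transcripts on build mm10, with annotation M4 of GENCODE named in the notes beside the files. Aligner and quantifier: not given in the sources used here. Deposited expected counts need not be whole and were rounded for intervals. TPM and FPKM were used as deposited, as were posterior mean TPM values and each transcript's percent of its gene. Symbols and mm10 positions came from GENCODE M21, and 42462 of 43346 genes had a symbol. Of 140 list genes outside the members 138 were matched; Trdc and Cd244 were not analysed here. Some list genes are not reported here. Tables on mm9 and protein features were not analysed here.

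The members and lists were chosen with earlier results of these data known. The text names all members, the 3 highest genes of each list and cell type markers below 1 TPM, though not each of them. Car1, Aqp8, Lyz1, Fabp6, Xist, Haspin, Tcrg-C1, Bcl11b, Foxp3, Prf1, Itga1, Xcl1, Ahr, Csf1r, Adgre1, Cx3cr1, Vil1, Cdh17, Epcam, Cldn7, Krt18, Ptprc and the V genes were named after their values were seen. The log2 ratio was taken on TPM + 1 over genes with a mean of at least 1 TPM. The design allows no p-value. Intervals for TPM ratios are exact conditional binomial limits, those for ratios of ratios conditional odds ratio limits. A chi-square limit was passed by 65.4% of 17110 genes with 20 or more counts, so the libraries are not copies of each other. The steps were tested on simulated data. Alternatives were FPKM, posterior means, expected counts, other minimums and pseudocounts, TPM without spike-ins and mitochondrial genes, TMM (edgeR 4.0.16), median-ratio size factors (DESeq2 1.42.0, R 4.3.3) and leaving out each library. The rest was run in Python 3.11.15 (pandas 2.3.3, numpy 2.4.6, matplotlib 3.10.9, scipy 1.17.1).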

Additional observations from a re-analysis of the deposited data

How the results depend on the processing

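Of 229 alternative values, 193 were labelled the same and 36 moved, 31 of these for single genes. The limit was the SD of the replicates for levels, ratios and transcript shares, and came from the counting interval for log2 ratios. Counts of genes had limits of their own. No gene was called 2-fold apart in the main values, so no called direction could reverse. A level, ratio or share from 1 library alone lies within the SD by construction, so these alternatives could not move. Dropping the filter on low values left the members' log2 ratios unchanged, since all pass it. With expected counts, which are not corrected for length, Cd8b1 over Cd8a was 0.228 against 0.551 as the mean of TPM ratios, and Gzma over Gzmb 0.546 against 0.989. With posterior mean TPM, Cd8a over Cd4 was 0.767 against 0.826. A minimum of 5 TPM left 6 of 10 genes detected, and with a pseudocount of 0.1 there was 1 gene 2-fold apart, Itgae. Signs turned for Cd4 (0.04 with FPKM, 0.07 with TMM) and Cd3e (0.00 with TMM), both within counting error. With replicate 2 alone and with replicate 1 alone, the sum was 231.71 and 341.09 TPM, Cd8b1 over Cd8a 0.696 and 0.405, Cd8a over Cd4 0.795 and 0.858, Gzma over Gzmb 0.889 and 1.09, and gamma over alpha and beta 0.0715 and 0.0578. No paired analysis was possible because there is 1 group.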

Other observations

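The variable genes of the T cell receptor were sparsely covered. Of 132 annotated V genes, 58 had counts in replicate 2 and 66 in replicate 1, and 50 had them in both, with 340 counts in replicate 2 and 287 in replicate 1. Beta V genes had 208 counts in replicate 2 and 142 in replicate 1, alpha V genes 119 in replicate 2 and 118 in replicate 1, and gamma V genes 8 in replicate 2 and 17 in replicate 1. Trbv1 was the highest by mean, at 4.49 TPM in replicate 2, against 3.09 TPM in replicate 1, followed by Trbv31 at 3.57 TPM in replicate 2, against 2.22 TPM in replicate 1. Tcrg-V7, whose chain is typical of gamma-delta intraepithelial lymphocytes of the mouse gut, had 1 count in replicate 2 and 6 in replicate 1, too few to set the libraries apart. V genes are counted here as annotated germline genes, and rearranged reads may be missed.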
